A study of Mus musculus with 10 samples.

Results

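A set of 10 genes of mitochondrial fatty acid oxidation was followed in cultured mouse CD8+ T cells, out of 23992 gene symbols in the deposited tables. They are Cpt1a, Slc25a20, Cpt2, Acadvl, Acadl, Acadm, Acads, Hadha, Hadhb and Etfa. They were picked by symbol, and where a symbol has several transcripts the one with the largest read sum was taken. The tables list 1 transcript for each of them, and all 10 passed the filter on low counts. The series asked how blocking lactate dehydrogenase acts on CD8+ T cells given IL-21 or IL-2. Spleen CD8+ T cells of C57BL/6N mice, for which the labels give no age, were isolated and activated in every group for 48 h with plate-bound anti-CD3 and soluble anti-CD28, each at 2 µg/ml, then pooled, washed and cultured for another 48 h. Cells of the IL-21 + LDHi group received mouse IL-21 at 100 ng/ml and the lactate dehydrogenase inhibitor NCI-737 (LDHi) at 1 µM, cells of the IL-2 + LDHi group received human IL-2 at 100 IU/ml and the same inhibitor, and the IL-21 and IL-2 groups received the cytokine alone. The group without cytokine received neither. The inhibitor was present from activation onward and no group had it without a cytokine, so an effect on activation and an effect on the later cytokine response cannot be told apart. Poly(A) RNA was sequenced from 2 libraries in each of the 5 groups.

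Long-chain fatty acids enter the mitochondrial matrix through the carnitine shuttle: Cpt1a joins the acyl chain to carnitine at the outer membrane, Slc25a20 carries the acylcarnitine across the inner membrane and Cpt2 returns the chain to coenzyme A. Inside, acyl-CoA dehydrogenases of graded chain length make the first oxidation, the trifunctional protein of Hadha and Hadhb carries out the next steps on long chains, and the electron transfer flavoprotein, of which Etfa is a subunit, takes up the electrons that the dehydrogenases release. In T cells this pathway is best known from memory and regulatory cells, whereas freshly activated effector cells lean on glycolysis, which ends in the lactate dehydrogenase reaction.

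The authors' library totals were 45138204 to 62848913 reads, of which 27137191 to 46656183 lay on the transcripts used, and the 10 genes had 404 to 8147 reads per library. RPKM, reads scaled to transcript length in kilobases and to the authors' library total, is the level given here, and it allows genes of different length to be compared. IL-21 replicate 2 stood apart: 59.9% of its total lay on the transcripts used, the lowest share of the 10 libraries, and the log2 difference between the IL-21 replicates had an SD of 0.76 over genes, against 0.30 to 0.49 in the other groups. Its RPKM values therefore run low beside fold changes, which were fitted on counts scaled over those transcripts (TMM, trimmed mean of M values). The same share was 69.3 and 70.0% in IL-21 + LDHi and 78.8 and 79.4% in IL-2, so RPKM and fold changes can order the groups differently. The 9 T cell markers summed to 1657 to 1667 RPKM in IL-21 + LDHi, 1965 to 2062 in IL-2 + LDHi, 1559 to 2242 in IL-21, 1790 to 1933 in IL-2 and 1784 to 2258 RPKM without cytokine, and Cd4 stayed between 0.187 and 1.05 RPKM. In such bulk samples, fewer cells of a type and less RNA per cell cannot be told apart. The labels do not say what a replicate is. The p values below reflect how far the 2 libraries of a group lie apart, pooled over all 5 groups, a spread that may be technical only. The wide IL-21 pair thus enters the p values of every comparison. A fit without 1 library leaves 1 in its group, so that group then adds nothing to the spread.

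In the carnitine shuttle, Cpt1a and Slc25a20 were well above Cpt2, and none of the 3 passed the test against the group without cytokine. Cpt1a (chr19:3322326-3385735, mm10, plus strand) had 18.1 and 18.1 RPKM in IL-21 + LDHi, 23.3 and 22.0 in IL-2 + LDHi, 20.4 and 14.1 in IL-21, 19.4 and 20.2 in IL-2, and 20.0 and 17.3 RPKM without cytokine. Its order by mean level ran IL-2 + LDHi, IL-2, no cytokine, IL-21 + LDHi and IL-21, and below the first of these each neighbouring pair of groups overlapped. Slc25a20 (chr9:108662136-108684642, plus strand) had 7.92 and 6.496 RPKM in IL-21 + LDHi, 10.9 and 10.6 in IL-2 + LDHi, 14.3 and 9.29 in IL-21, 10.7 and 11.9 in IL-2, and 12.4 and 10.7 RPKM without cytokine. Both IL-21 + LDHi libraries lay below the other 8, which overlapped from group to group. Cpt2 (chr4:107903982-107923589, minus strand) had 3.69 and 3.85 RPKM in IL-21 + LDHi, 3.48 and 4.19 in IL-2 + LDHi, 4.52 and 3.88 in IL-21, 5.79 and 5.13 in IL-2, and 4.30 and 4.71 RPKM without cytokine. The IL-2 libraries were the highest and did not overlap with any other group. The ratio of Cpt1a to Cpt2 in RPKM averaged 4.80 ± 0.153 in IL-21 + LDHi, 5.97 ± 1.04 in IL-2 + LDHi, 4.07 ± 0.614 in IL-21, 3.65 ± 0.418 in IL-2 and 4.15 ± 0.684 without cytokine (SD, n = 2 each). Both IL-2 + LDHi libraries lay above all others in this ratio.

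The acyl-CoA dehydrogenases behaved unlike each other. Acadvl (chr11:70010183-70015428, minus strand), which acts on very long chains, had 27.0 and 28.1 RPKM in IL-21 + LDHi, 24.0 and 24.5 in IL-2 + LDHi, 25.9 and 11.8 in IL-21, 25.0 and 25.1 in IL-2, and 20.2 and 14.98 RPKM without cytokine. The 3 lowest values were those of IL-21 replicate 2 and the libraries without cytokine, and the IL-21 libraries spanned nearly the whole range. Of the 2686 exon bases of Acadvl in the GENCODE annotation, 1151 (42.9%) overlap Dvl2 on the opposite strand. The sources used here do not give the strand setting of the counting, so reads of the 2 genes cannot be told apart there. Dvl2 itself, a signalling gene of the Wnt pathway, had 8.12 and 8.81 RPKM in IL-21 + LDHi, 10.3 and 10.5 in IL-2 + LDHi, 7.64 and 5.18 in IL-21, 9.88 and 8.64 in IL-2, and 10.4 and 8.84 RPKM without cytokine. Both genes had their lowest value in IL-21 replicate 2. What part reads of the shared bases have in the Acadvl values was not tested. Dvl2 was lower in IL-21 than in IL-2 (log2 -0.37 ± 0.14, adjusted p = 0.0498 by edgeR) and was not called in the other comparisons. Hadha shares 75 of 8730 exon bases (0.859%) with Garem2 in the same way.

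Acadl (chr1:66830839-66863309, minus strand), the dehydrogenase of long chains, had 29.1 and 28.5 RPKM in IL-21 + LDHi, 28.8 and 30.2 in IL-2 + LDHi, 55.7 and 55.8 in IL-21, 66.1 and 63.3 in IL-2, and 27.1 and 27.9 RPKM without cytokine. The libraries with a cytokine alone formed a high set, and all 6 other libraries lay in a narrow band far below it. By group mean RPKM IL-2 stood first and IL-21 second, the inhibitor groups came next and overlapped with each other, and the group without cytokine was last and apart from them. CPM, counts relative to the TMM-scaled library size, gave the same high set, with 147 and 182 in IL-21 and 173 and 163 in IL-2, against 70.7 to 83.6 in the other 6 libraries. Among these 6, the libraries without cytokine (70.7 and 73.9) overlapped in CPM with those of IL-2 + LDHi (73.0 and 75.7). Acadm (chr3:153922353-153944643, minus strand), the dehydrogenase of medium chains, had 21.7 and 21.7 RPKM in IL-21 + LDHi, 19.1 and 19.0 in IL-2 + LDHi, 21.3 and 15.6 in IL-21, 16.8 and 16.0 in IL-2, and 23.9 and 24.7 RPKM without cytokine. In RPKM it was highest without cytokine and low in IL-2, where no library reached any library of the inhibitor groups. IL-21 replicate 2 was as low as IL-2 in RPKM, but in CPM it had 53.9, above the IL-2 libraries with 46.5 and 43.6. In CPM the libraries without cytokine (65.9 and 69.2) overlapped with those of IL-21 + LDHi (66.0 and 65.2). Acads (chr5:115110299-115119346, minus strand), the dehydrogenase of short chains, had 6.12 and 6.86 RPKM in IL-21 + LDHi, 11.5 and 12.2 in IL-2 + LDHi, 10.6 and 4.77 in IL-21, 22.0 and 23.9 in IL-2, and 14.9 and 10.3 RPKM without cytokine. Its IL-2 libraries stood above all others, and its highest group mean was 3.54 times the lowest, the widest span among the 10 genes.

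The trifunctional protein genes lie head to head, with Hadha at chr5:30119423-30154980 on the minus strand and Hadhb at chr5:30155253-30184593 on the plus strand, their annotated starts 273 bases apart. Hadha, the subunit with the hydratase and dehydrogenase activities, had 23.0 and 22.7 RPKM in IL-21 + LDHi, 31.9 and 32.8 in IL-2 + LDHi, 32.8 and 21.8 in IL-21, 37.6 and 38.4 in IL-2, and 31.8 and 28.0 RPKM without cytokine. Hadhb, the thiolase subunit, had 42.9 and 44.2 RPKM in IL-21 + LDHi, 44.8 and 48.4 in IL-2 + LDHi, 43.6 and 25.0 in IL-21, 43.6 and 43.5 in IL-2, and 39.1 and 43.1 RPKM without cytokine. Hadha was highest in IL-2 and low in IL-21 + LDHi, while Hadhb stayed between 39.1 and 48.4 RPKM in 9 libraries and was lower in IL-21 replicate 2 alone. The ratio of Hadha to Hadhb, in which the library total cancels, was 0.535 and 0.513 in IL-21 + LDHi, 0.713 and 0.676 in IL-2 + LDHi, 0.753 and 0.871 in IL-21, 0.863 and 0.882 in IL-2, and 0.812 and 0.650 without cytokine. Both IL-21 + LDHi libraries lay below all others, and the IL-2 + LDHi ratios lay below those of IL-2 but overlapped with those without cytokine.

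Etfa (chr9:55454436-55512243, minus strand) had 21.4 and 19.2 RPKM in IL-21 + LDHi, 30.1 and 32.3 in IL-2 + LDHi, 21.4 and 14.6 in IL-21, 41.4 and 38.9 in IL-2, and 20.8 and 21.5 RPKM without cytokine. Both groups with IL-2 stood above the other 3, and the IL-2 libraries without inhibitor were the highest. Its partner subunit Etfb had 13.9 and 14.5 RPKM in IL-21 + LDHi, 25.5 and 28.2 in IL-2 + LDHi, 32.5 and 19.4 in IL-21, 34.4 and 30.6 in IL-2, and 34.3 and 36.5 RPKM without cytokine. The Etfa to Etfb ratio in RPKM was therefore below 1 in IL-21 (0.707 ± 0.0677) and without cytokine (0.597 ± 0.0118), and above 1 in IL-21 + LDHi (1.43 ± 0.147), IL-2 + LDHi (1.16 ± 0.0271) and IL-2 (1.24 ± 0.0471; SD, n = 2 each).

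**Figure D1:**
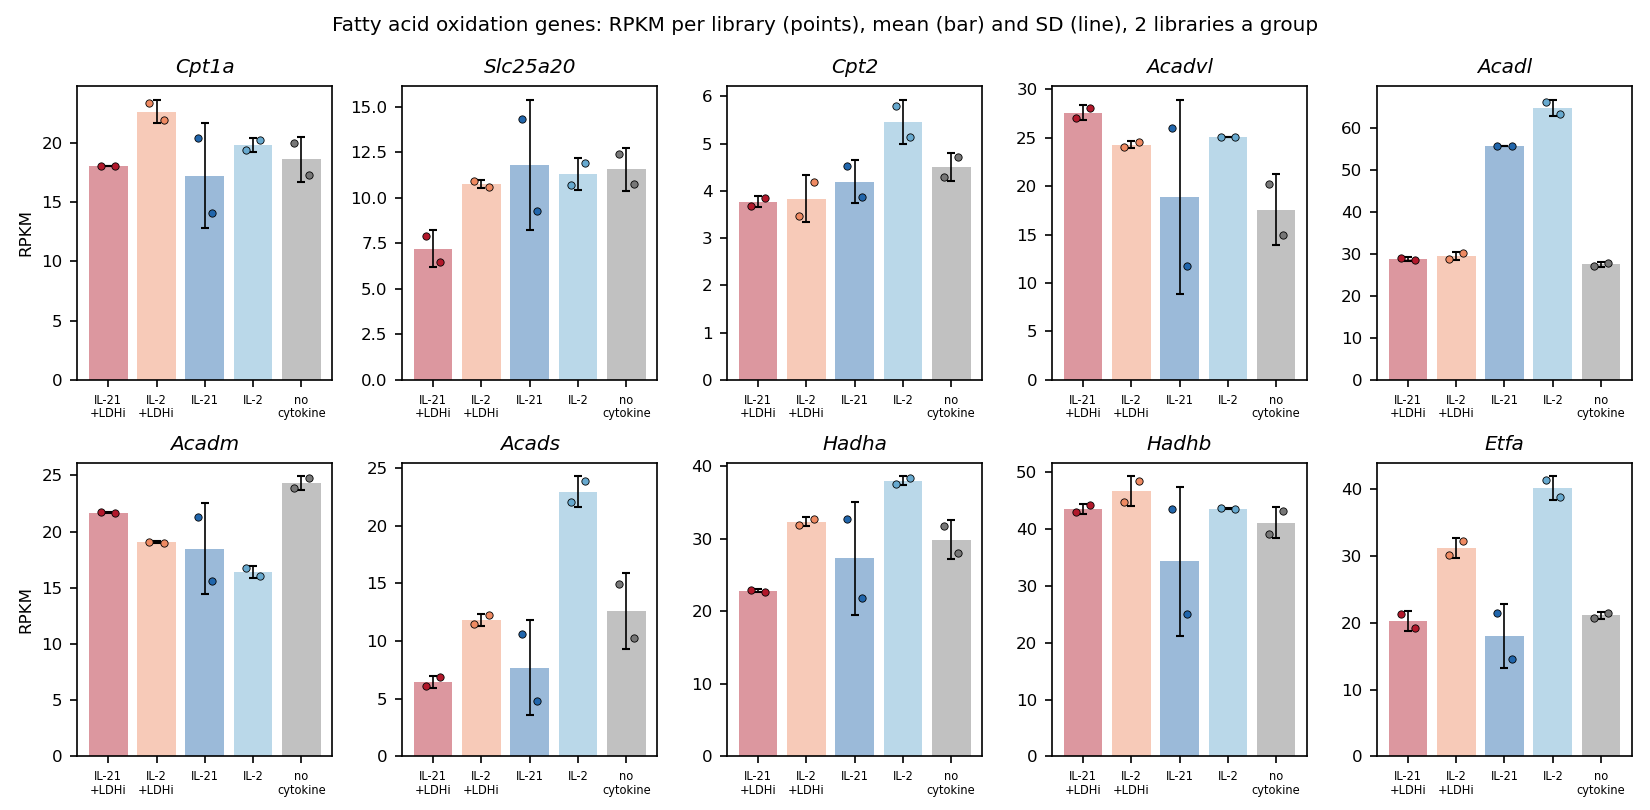
RPKM of the 10 genes (vertical axis, from 0) in the 5 groups, with points for the 2 libraries, bars for their mean and lines for the SD. Acadl is high in the IL-21 and IL-2 groups and between 27.1 and 30.2 RPKM in the other 3. IL-21 replicate 2, whose RPKM values run low, is the low point of Cpt1a, Acadvl, Acadm, Acads, Hadha, Hadhb and Etfa.

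**Figure D2:**
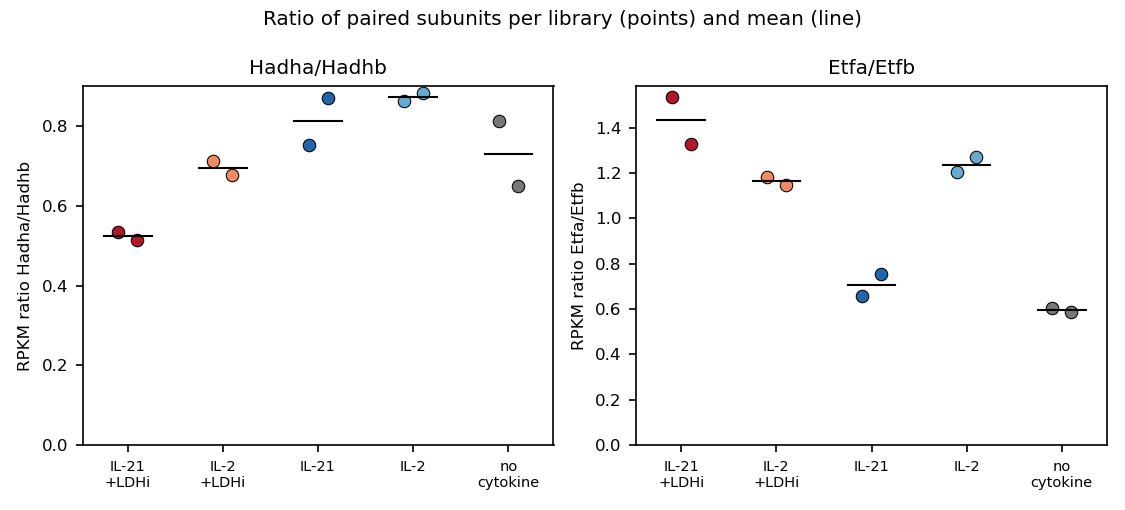
Ratio of RPKM between partner subunits (vertical axis, no unit) in each library (points), with the mean as a line. The Hadha to Hadhb ratio is lowest in IL-21 + LDHi, at 0.535 and 0.513, and the Etfa to Etfb ratio is below 1 in IL-21 and without cytokine.

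Promoter windows of RefSeq (GRCm38.p6, 250 bases before to 50 after the annotated start) are shown for genes that moved differently in the comparisons, so that their sequence can be set beside their values. Acadl and Acads are printed with GC boxes (GGGCGG on either strand) in capitals, Acadm and Etfa with the core of the NRF1 motif (GCATGC) in capitals, and Hadhb with the 228 bases that its window shares with that of Hadha in capitals, all 5′ to 3′.
Acadl, chr1:66863260-66863559, minus strand: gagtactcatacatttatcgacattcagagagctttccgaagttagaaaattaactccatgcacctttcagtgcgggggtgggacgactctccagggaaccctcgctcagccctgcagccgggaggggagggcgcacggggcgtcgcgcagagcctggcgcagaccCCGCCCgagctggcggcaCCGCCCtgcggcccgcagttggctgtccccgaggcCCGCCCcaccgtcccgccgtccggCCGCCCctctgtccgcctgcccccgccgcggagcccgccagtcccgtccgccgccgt
Acads, chr5:115119297-115119596, minus strand: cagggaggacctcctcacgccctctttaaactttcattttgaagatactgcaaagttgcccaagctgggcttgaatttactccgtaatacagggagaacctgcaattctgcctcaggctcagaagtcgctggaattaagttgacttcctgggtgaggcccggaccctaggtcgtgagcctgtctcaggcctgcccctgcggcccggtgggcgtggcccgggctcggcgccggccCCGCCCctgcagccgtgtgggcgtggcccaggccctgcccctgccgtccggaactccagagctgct
Acadm, chr3:153944594-153944893, minus strand: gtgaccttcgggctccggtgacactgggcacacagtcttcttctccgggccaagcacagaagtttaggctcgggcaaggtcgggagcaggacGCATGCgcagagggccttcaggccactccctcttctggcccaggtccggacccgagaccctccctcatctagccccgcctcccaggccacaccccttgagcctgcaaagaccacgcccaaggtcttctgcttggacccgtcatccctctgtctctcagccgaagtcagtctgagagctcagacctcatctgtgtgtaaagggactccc
Etfa, chr9:55512194-55512493, minus strand: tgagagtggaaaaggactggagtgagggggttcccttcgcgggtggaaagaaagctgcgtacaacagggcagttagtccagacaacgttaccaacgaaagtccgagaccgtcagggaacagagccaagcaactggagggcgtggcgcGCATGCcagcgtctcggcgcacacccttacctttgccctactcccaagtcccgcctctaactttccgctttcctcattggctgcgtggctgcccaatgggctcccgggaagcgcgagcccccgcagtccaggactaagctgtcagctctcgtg
Hadhb, chr5:30155003-30155302, plus strand: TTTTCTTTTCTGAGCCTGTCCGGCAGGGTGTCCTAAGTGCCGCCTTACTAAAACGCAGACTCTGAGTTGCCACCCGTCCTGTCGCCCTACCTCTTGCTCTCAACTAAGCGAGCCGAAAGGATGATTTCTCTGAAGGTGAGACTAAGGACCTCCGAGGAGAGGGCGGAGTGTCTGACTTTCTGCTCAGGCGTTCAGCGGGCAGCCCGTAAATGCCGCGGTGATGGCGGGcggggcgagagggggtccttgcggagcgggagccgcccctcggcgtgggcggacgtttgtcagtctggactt

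Acadl holds 4 GC boxes in this window and Acads 1, and 7 of the 10 genes have at least 1, all but Acadvl, Acadm and Etfa. The GC box occurs in 35.7% of the 32841 promoter windows of the same length in the table. The NRF1 core was found in Acadm and Etfa, which moved in opposite directions with IL-2, and occurs in 7.94% of windows. The estrogen-related receptor half-site AAGGTCA was found in Acadm alone (4.72% of windows), and the direct repeat of AGGTCA with 1 base between the copies, read by PPAR with RXR, in 0 of the 10 (0.0396% of windows). The STAT motif TTCNNNGAA was found in Cpt2, Hadha and Hadhb, and it occurs in 8.30% of windows. Hadha and Hadhb share their STAT match and a GC box, which lie in the stretch common to both windows. CCAAT was found in Cpt1a and Etfa (37.4% of windows), CCGGAAG, the ETS motif, in Slc25a20 and Cpt2 (8.86%), and the E-box CACGTG in none (7.15%). Both strands were searched, matches of different motifs did not overlap in these 10 windows, and a match describes the letters only.

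IL-2 was set against no cytokine to see what the cytokine does to activated cells. Acadl, Etfa, Acads and Hadha rose with IL-2 and Acadm fell. Fold changes come from edgeR's quasi-likelihood fit over all 10 libraries, are given as log2 ± SE, and adjusted p values (Benjamini-Hochberg over 14357 genes) below 0.05 were called. With 4 genes called higher and 1 lower of 10, their share is near that of all genes, of which 50.5% were called in this comparison, 25.6% higher and 24.8% lower. Acadl was 2.32-fold higher (log2 1.21 ± 0.12, adjusted p = 5.38e-05), Etfa 1.88-fold higher (0.91 ± 0.12, adjusted p = 0.000323), Acads 1.80-fold higher (0.85 ± 0.26, adjusted p = 0.0217) and Hadha 1.26-fold higher (0.33 ± 0.12, adjusted p = 0.0398). Acadm fell to 0.667 of the level without cytokine (-0.58 ± 0.10, adjusted p = 0.00133). The 5 other genes were not called: their 95% intervals of the log2 fold change were -0.18 to 0.33 for Cpt1a, -0.41 to 0.30 for Slc25a20, -0.08 to 0.59 for Cpt2, -0.04 to 1.03 for Acadvl and -0.28 to 0.41 for Hadhb. The median over the 10 genes was 0.29, against -0.03 over all genes tested.

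The call of Hadha was lost without IL-2 replicate 1 or 2, IL-2 + LDHi replicate 1 or 2, IL-21 + LDHi replicate 1 or 2, or no-cytokine replicate 2 (log2 0.25 to 0.34, adjusted p 0.0680 to 0.183). It was lost in 13 of 20 alternatives in all, also with library size alone as the scale (0.19, adjusted p = 0.173), with no filter, with genes of at least 5 RPKM, with these groups fitted alone and by limma on both scales (adjusted p 0.0609 to 0.173 over these 6). The call of Acads was lost without IL-2 replicate 1 or 2 or no-cytokine replicate 2 (log2 0.61 to 0.90, adjusted p 0.0726 to 0.135) and by limma (adjusted p = 0.0545 and 0.0549). Acadvl was called with these groups fitted alone (log2 0.48, adjusted p = 0.0349 by edgeR) and without either IL-21 library (log2 0.49 and 0.50). Markers of other cells moved with this comparison: 6 basophil and mast cell genes summed to 2.91 to 3.36 RPKM in IL-2 and 206.9 to 459.5 RPKM without cytokine, 7 of 8 macrophage genes found in the tables to 11.3 to 13.9 and 130 to 172 RPKM, and 5 of 6 granulocyte genes to 0.266 to 0.490 and 32.4 to 47.5 RPKM. None of these markers was at 0 reads over both libraries of either group, and their part in the results was not tested.

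Of 17 tested genes of 18 in a list of other mitochondrial beta oxidation enzymes, 7 rose with IL-2 and 1 fell, with a median log2 change of 0.27, a share close to the 50.5% of all genes called in this comparison. The list also holds genes of propionyl-CoA handling, among them Pcca and Pccb. Hadh, the short-chain hydroxyacyl-CoA dehydrogenase, rose by 1.25 ± 0.10 on the log2 scale (adjusted p = 2.04e-05) and Echs1, the short-chain hydratase, by 0.75 ± 0.25 (adjusted p = 0.0302, and up to 0.120 without either library of the no-cytokine, IL-2 or IL-21 + LDHi group). Pcca, a subunit of propionyl-CoA carboxylase, rose by 0.86 ± 0.14 (adjusted p = 0.000992) and Etfdh, which passes electrons from the flavoprotein to ubiquinone, by 0.48 ± 0.10 (adjusted p = 0.00397), while Etfb was not called (-0.14 ± 0.16). In the opposing pathway, 13 of 15 genes of malonyl-CoA and fatty acid synthesis rose, with a median of 1.43, and 0 fell by edgeR (1 at an unadjusted p below 0.05, 1 by DESeq2 and 0 by limma). Acaca and Acacb, whose product malonyl-CoA inhibits Cpt1a, rose by 1.60 ± 0.11 (adjusted p = 9.23e-06) and 2.30 ± 0.29 (adjusted p = 0.000217), with Acacb at 0.498 and 0.575 RPKM in IL-2 and 0.130 and 0.0836 RPKM without cytokine. Mlycd, which breaks malonyl-CoA down, was not called (-0.54 ± 0.21, adjusted p = 0.0554).

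In the list of fatty acid uptake, activation and carnitine handling, 7 of 18 tested genes rose with IL-2 and 4 fell. The acyl-CoA synthetase Acsl3 rose by 2.85 ± 0.33 (adjusted p = 0.000141) and the acyl-CoA binding protein Dbi by 1.11 ± 0.13 (adjusted p = 0.000139), and the mitochondrial thioesterase Acot2 fell by 1.17 ± 0.14 (adjusted p = 0.000193). The other Cpt1 genes had low levels, Cpt1b at 0.605 and 0.681 RPKM in IL-2 and 0.785 and 0.949 RPKM without cytokine, and Cpt1c at 0.259 and 0.317 against 0.178 and 0.254 RPKM. Of 14 peroxisomal genes 2 rose and 3 fell, and of 6 tested PPAR targets outside beta oxidation 2 rose and 3 fell. Of 6 lipolysis genes 1 was called: Plin2, a lipid droplet coat protein also in the PPAR list, rose by 0.76 ± 0.21 (adjusted p = 0.0140, and up to 0.100 without IL-2 replicate 2 or no-cytokine replicate 1). Among 18 tested regulators of the pathway 2 rose and 5 fell. Ppargc1b, a coactivator of mitochondrial genes, fell by 1.22 ± 0.16 (adjusted p = 0.000309), and Pparg rose by 3.30 ± 0.61 (adjusted p = 0.00194) at 1.73 and 1.10 RPKM in IL-2, against 0.0955 and 0.191 RPKM without cytokine. Ppara had 0 to 5 reads per group over both libraries and was not tested.

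IL-21 against no cytokine showed a single called gene among the 10. Acadl was 2.27-fold higher with IL-21 (log2 1.18 ± 0.12, adjusted p = 0.000536), against 1.21 with IL-2, and both comparisons share the libraries without cytokine. Its 1 of 10 stands beside 11.5% of all genes called, 5.65% higher and 5.9% lower. Fitted on these 2 groups alone, the change was 1.21 with an adjusted p of 0.0668. The 9 other genes were not called: 0 were lower by edgeR, DESeq2 or limma, and 2 at an unadjusted p below 0.05. The widest intervals were those of Acads (-1.18 to -0.02) and Acadvl (-0.32 to 0.75), and the narrowest that of Acadm (-0.48 to -0.02), with log2 values of -0.60, 0.21 and -0.25. Etfa, at -0.09 (-0.36 to 0.19), and Hadha, at 0.01 (-0.26 to 0.27), were not called. The median of the 10 genes was 0.02, against -0.01 over all genes.

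The IL-21 libraries decided several of these values. With IL-21 replicate 1 left out, replicate 2 stands alone for its group. The log2 changes were then -1.10 for Acads, -0.41 for Hadhb and -0.33 for Acadm. Without replicate 2 that of Acadvl was 0.57. Marker sums of other cells were 66.6 to 92.0 RPKM in IL-21 and 206.9 to 459.5 RPKM without cytokine for basophil and mast cell genes, 46.2 to 51.0 and 130 to 172 RPKM for macrophage genes, and 11.2 to 20.7 and 32.4 to 47.5 RPKM for granulocyte genes. None was at 0, and their part was not tested. Of the 17 other mitochondrial enzymes 0 rose and 0 fell by edgeR, with 0 and 3 at an unadjusted p below 0.05 and 0 and 1 by DESeq2 and by limma. That list had 7 falls without IL-21 replicate 1, and without replicate 2 it had 1 rise and 1 fall. Of the 15 synthesis genes 6 rose, or 2 without either library of the no-cytokine group, among them Elovl6, an elongase, by 2.44 ± 0.11 (adjusted p = 9.56e-06) and Acaca by 0.84 ± 0.11 (adjusted p = 0.00182, and 0.120 with these groups fitted alone). The uptake list had 1 rise (Dbi, 0.65 ± 0.13, adjusted p = 0.0135, not called without no-cytokine replicate 1) and 1 fall among 18, the regulators 1 call among 18, which was a fall, and the peroxisomal list 0 calls among 14 (1 at an unadjusted p below 0.05, 1 by DESeq2 and 0 by limma). Lipolysis and PPAR target lists each had 1 call among 6, in both cases a fall of Plin2 (-1.29 ± 0.21, adjusted p = 0.00697, and 0.148 with these groups fitted alone).

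IL-21 was also set against IL-2, a comparison that shares the IL-2 libraries with that of IL-2 against no cytokine. Acads, Etfa and Hadha were lower with IL-21 and Acadm was higher, 1 higher and 3 lower of 10, beside 49.6% of all genes called, 24.9% higher and 24.7% lower. Acads stood at 0.367 of the IL-2 level (log2 -1.45 ± 0.26, adjusted p = 0.00193), Etfa at 0.501 (-0.996 ± 0.122, adjusted p = 0.000238) and Hadha at 0.799 (-0.32 ± 0.12, adjusted p = 0.0438). Acadm was 1.26-fold higher (0.33 ± 0.10, adjusted p = 0.0229). Acadl differed by -0.03 with an interval of -0.29 to 0.23, and Cpt1a by -0.04 (-0.30 to 0.21). Slc25a20 (-0.14 to 0.57), Cpt2 (-0.54 to 0.13), Acadvl (-0.81 to 0.25) and Hadhb (-0.54 to 0.14) were not called either.

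Hadha lost its call without IL-2 replicate 1 or 2, IL-21 replicate 2, IL-2 + LDHi replicate 1 or 2 or IL-21 + LDHi replicate 1 or 2 (-0.33 to -0.19, adjusted p 0.0745 to 0.187). With library size alone, no filter, these groups fitted alone and limma on both scales it was lost too (adjusted p 0.0512 to 0.190), 12 of 20 alternatives in all. Acadm lost its call in 9. These were the fits without IL-2 replicate 1 or 2, IL-21 replicate 1 or IL-2 + LDHi replicate 1 or 2 (0.25 to 0.38, adjusted p 0.0561 to 0.135), with no filter, with these groups fitted alone and by limma on both scales (0.15 to 0.35, adjusted p 0.0705 to 0.439). Without IL-21 replicate 1, which leaves replicate 2 alone in its group, the log2 change was -0.77 for Acadvl and -0.48 for Hadhb. Basophil and mast cell markers summed to 66.6 to 92.0 RPKM in IL-21 and 2.91 to 3.36 RPKM in IL-2, macrophage markers to 46.2 to 51.0 and 11.3 to 13.9 RPKM, and granulocyte markers to 11.2 to 20.7 and 0.266 to 0.490 RPKM. Their part in the result was not tested. Of the 17 other mitochondrial enzymes 8 were lower with IL-21 and 0 higher by edgeR, DESeq2, limma or an unadjusted p below 0.05. They were led by Hadh (-1.24 ± 0.10, adjusted p = 2.87e-05) and Decr1, a reductase for unsaturated chains (-1.09 ± 0.16, adjusted p = 0.000634). That list had 15 lower without IL-21 replicate 1, and without any 1 of the other libraries 6 to 7. The synthesis list had 1 higher and 11 lower of 15, led by the desaturase Scd2 (-3.25 ± 0.15, adjusted p = 4.62e-06), and the uptake list 2 higher and 7 lower of 18, with the fatty acid binding protein Fabp5 at -1.68 ± 0.22 (adjusted p = 0.000387). Peroxisomal genes gave 1 higher and 2 lower of 14, lipolysis genes 1 and 2 of 6, regulators 6 and 3 of 18 and PPAR targets 3 and 2 of 6.

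**Figure D3:**
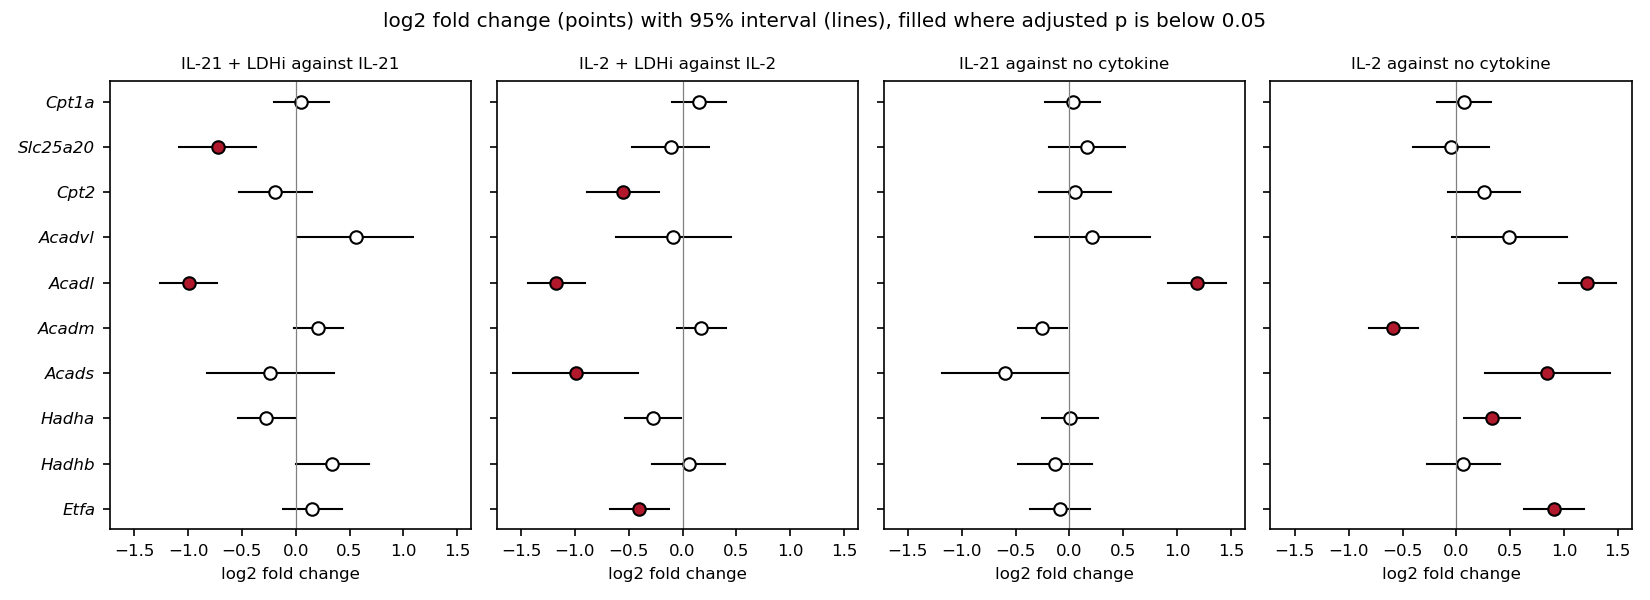
Log2 fold change of the 10 genes (horizontal axis, points) with 95% intervals (lines) for the inhibitor in IL-21 and in IL-2 cells and for IL-21 and IL-2 against no cytokine, filled where the adjusted p is below 0.05. Acadl is the gene filled in all 4 panels, at -0.996 and -1.17 with the inhibitor and 1.18 and 1.21 with the cytokines.

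The inhibitor was compared with its absence in cells given the same cytokine, so that the libraries with IL-2 or IL-21 alone serve here and in the comparisons with no cytokine. In IL-2 cells LDHi lowered Acadl, Acads, Cpt2 and Etfa. Of the 10 genes 4 were thus lower, and 0 were higher by edgeR, DESeq2, limma or an unadjusted p below 0.05, beside 39.4% of all genes called, 17.8% higher and 21.6% lower. Acadl fell to 0.443 of the IL-2 level (log2 -1.17 ± 0.12, adjusted p = 0.000115) and Acads to 0.502 (-0.99 ± 0.26, adjusted p = 0.0139). Cpt2 fell to 0.682 (-0.55 ± 0.15, adjusted p = 0.0168) and Etfa to 0.756 (-0.40 ± 0.12, adjusted p = 0.0260). The levels of Acadl with IL-2 + LDHi, 28.8 and 30.2 RPKM, were a little above those without cytokine, 27.1 and 27.9 RPKM. In CPM the 2 groups overlapped (73.0 and 75.7 against 70.7 and 73.9). Etfa with IL-2 + LDHi stayed above every library without cytokine. Hadha was not called, at -0.27 (-0.53 to -0.01), nor were Cpt1a (-0.10 to 0.41), Slc25a20 (-0.47 to 0.24), Acadvl (-0.62 to 0.45), Acadm (-0.05 to 0.40) and Hadhb (-0.28 to 0.40). The median over the 10 genes was -0.19, against 0.01 over all genes tested.

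Of the 4 falls, that of Acadl held under all 20 alternatives. Acads (log2 -1.04 to -0.92, adjusted p 0.0589 to 0.0886) and Etfa (-0.44 to -0.34, adjusted p 0.0940 to 0.175) were not called without IL-2 replicate 1 or 2 or IL-2 + LDHi replicate 1 or 2, and Cpt2 not without IL-2 replicate 1 or IL-2 + LDHi replicate 1 (-0.45 and -0.43, adjusted p = 0.124 and 0.163). The call of Etfa was also lost with library size alone (-0.28, adjusted p = 0.0889). By limma those of Etfa (adjusted p = 0.152 and 0.154) and Acads (adjusted p = 0.0545 and 0.0542) were lost. Hadha was called lower with these groups fitted alone (-0.27, adjusted p = 0.00288 by edgeR) and without either IL-21 library (-0.27 each). Acadm was called higher with these groups fitted alone (0.18, adjusted p = 0.0469) and with library size alone (0.29, adjusted p = 0.0460). Markers of other cells were low on both sides, with 1.61 to 1.84 RPKM in IL-2 + LDHi and 2.91 to 3.36 RPKM in IL-2 for basophil and mast cell genes, 10.7 to 16.2 and 11.3 to 13.9 RPKM for macrophage genes, and 0.387 to 0.504 and 0.266 to 0.490 RPKM for granulocyte genes, with S100a8 and Elane at 0 in IL-2 + LDHi. The 6 dendritic cell markers summed to 5.78 to 6.52 RPKM in IL-2 + LDHi and 18.1 to 21.6 RPKM in IL-2. The 3 genes listed as NK cell markers, Ncr1, Klrb1c and Eomes, summed to 38.1 to 39.1 and 19.8 to 21.6 RPKM. Such a sum does not show whether other cells or the T cells themselves hold the RNA, and the part of these markers in the result was not tested.

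Of the 17 other mitochondrial enzymes 10 fell with LDHi in IL-2 cells, beside 21.6% of all genes called lower, and 1, Pccb, rose (0.50 ± 0.13, adjusted p = 0.0160, not called without either library of the IL-2 or the IL-2 + LDHi group), with a list median of -0.49 on the log2 scale. Without IL-2 replicate 1 or 2 the list had 6 and 5 falls, and without IL-2 + LDHi replicate 1 or 2 it had 5 and 4. Decr1 fell by 1.17 ± 0.16 (adjusted p = 0.000581), Hadh by 0.85 ± 0.10 (adjusted p = 0.000254), Pcca by 0.87 ± 0.14 (adjusted p = 0.00142) and Eci2, an enoyl-CoA isomerase, by 0.85 ± 0.13 (adjusted p = 0.00118). Hadh stood at 18.8 and 20.5 RPKM in IL-2 + LDHi and 34.2 and 34.8 RPKM in IL-2. Of the 15 synthesis genes 13 fell and 0 rose by edgeR, DESeq2, limma or an unadjusted p below 0.05, with Acaca at -0.80 ± 0.11 (adjusted p = 0.000492), Acacb at -1.97 ± 0.28 (adjusted p = 0.000743) and Scd2 at -4.96 ± 0.17 (adjusted p = 2.25e-06). Of 18 uptake and carnitine genes 2 rose and 10 fell, including Acsl3 (-2.97 ± 0.33, adjusted p = 0.000204) and the carnitine acetyltransferase Crat (-1.23 ± 0.16, adjusted p = 0.000492). Peroxisomal genes gave 1 rise and 3 falls of 14, lipolysis genes 2 and 3 of 6 and PPAR targets 1 and 1 of 6. The regulators gave 5 rises and 4 falls of 18, with Rxra, a partner receptor of the PPARs, higher by 1.66 ± 0.18 (adjusted p = 0.000167) and Pparg lower by 3.97 ± 0.63 (adjusted p = 0.00138).

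**Figure D4:**
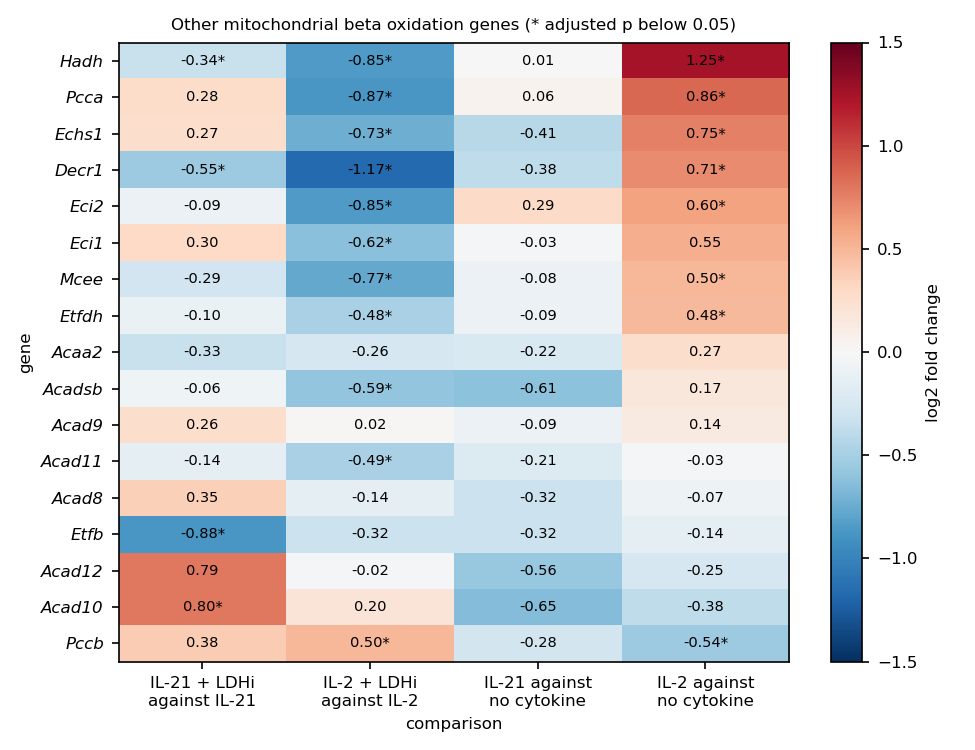
Log2 fold changes of 17 genes of the list of other mitochondrial enzymes, of beta oxidation and propionyl-CoA handling (rows), in 4 comparisons (columns), coloured from blue (lower) to red (higher), with an asterisk where the adjusted p is below 0.05. Hadh, Pcca, Echs1, Decr1, Eci2, Mcee and Etfdh are called higher for IL-2 against no cytokine and lower for IL-2 + LDHi against IL-2, 2 comparisons that share the IL-2 libraries, while the IL-21 column against no cytokine holds no called gene.

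In IL-21 cells LDHi lowered Acadl and Slc25a20. The 2 calls lower and 0 higher (1 higher at an unadjusted p below 0.05, 0 by DESeq2 and by limma) of 10 genes stand beside 31.4% of all genes called, 11.1% higher and 20.3% lower. Acadl fell to 0.501 of the IL-21 level (log2 -0.996 ± 0.117, adjusted p = 0.000249), to 29.1 and 28.5 RPKM in IL-21 + LDHi, against 55.7 and 55.8 RPKM in IL-21. Slc25a20 fell to 0.605 (-0.73 ± 0.16, adjusted p = 0.00805), not called without IL-21 + LDHi replicate 2 (-0.58, adjusted p = 0.0869) with these groups fitted alone (-0.73, adjusted p = 0.0809) and by limma on log2(RPKM + 1) (-0.62, adjusted p = 0.0575). The intervals of the genes not called were -0.20 to 0.31 for Cpt1a, -0.53 to 0.15 for Cpt2, 0.02 to 1.09 for Acadvl, -0.02 to 0.44 for Acadm, -0.82 to 0.35 for Acads, -0.54 to -0.01 for Hadha, -0.00163 to 0.68 for Hadhb and -0.12 to 0.43 for Etfa. Those of Acadvl and Hadha leave out 0 without passing the adjusted threshold. The median of the 10 genes was -0.07, against -0.03 over all genes.

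Without IL-21 replicate 1, which leaves replicate 2 alone in its group, the log2 change was 1.04 for Acadvl and 0.62 for Hadhb. Without replicate 2 it was -0.60 for Acads and -0.41 for Hadha. Other-cell markers also moved, with 1.02 to 1.49 RPKM in IL-21 + LDHi and 66.6 to 92.0 RPKM in IL-21 for basophil and mast cell genes, 5.74 to 7.59 and 46.2 to 51.0 RPKM for macrophage genes, and 0.330 to 0.490 and 11.2 to 20.7 RPKM for granulocyte genes, with S100a8, S100a9 and Elane at 0 in IL-21 + LDHi. Their part in that result was not tested. Of the 17 other mitochondrial enzymes 1 rose and 3 fell: Acad10, an acyl-CoA dehydrogenase family member, rose by 0.80 ± 0.26 (adjusted p = 0.0460), and Etfb fell by 0.88 ± 0.16 (adjusted p = 0.00304), Decr1 by 0.55 ± 0.16 (adjusted p = 0.0306) and Hadh by 0.34 ± 0.10 (adjusted p = 0.0319). Etfb held its call under all 20 alternatives. Hadh, Decr1 and Acad10 were not called without either library of the IL-2, IL-2 + LDHi or IL-21 + LDHi group (adjusted p up to 0.205, 0.186 and 0.194), Decr1 also without IL-21 replicate 1, and Acad10 also without IL-21 replicate 2 or no-cytokine replicate 1. The list had 8 rises and 2 falls without IL-21 replicate 1. Of the 15 synthesis genes 1, Acacb, rose (1.24 ± 0.29, adjusted p = 0.0112, not called without either IL-21 + LDHi library) and 7 fell, with Scd2 at -3.71 ± 0.16 (adjusted p = 8.08e-07), while Acaca was not called (-0.12 ± 0.11). Of 18 uptake and carnitine genes 5 were called, all falls, among them Fabp5 (-2.62 ± 0.25, adjusted p = 6.67e-05) and Crat (-1.75 ± 0.17, adjusted p = 7.18e-05). Lipolysis genes gave 1 rise and 2 falls of 6 and regulators 3 and 1 of 18. Of 14 peroxisomal genes 2 were called and of 6 PPAR targets 2, all falls.

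IL-21 + LDHi was also set against IL-2 + LDHi, which compares the cytokines under the inhibitor. Acadm was 1.29-fold higher with IL-21 + LDHi (log2 0.37 ± 0.10, adjusted p = 0.0256) and Etfa lower, at 0.737 of the IL-2 + LDHi level (-0.44 ± 0.12, adjusted p = 0.0261). These 2 calls, 1 higher and 1 lower of 10, stand beside 26.1% of all genes called, 9.39% higher and 16.7% lower. Acadl differed by 0.15 (-0.11 to 0.41). Acads (-0.69, -1.27 to -0.10), Hadha (-0.32, -0.59 to -0.06) and Slc25a20 (-0.40, -0.75 to -0.04) had intervals that leave out 0 and adjusted p values of 0.0818, 0.0701 and 0.0971. Cpt1a (-0.40 to 0.11), Cpt2 (-0.18 to 0.50), Acadvl (-0.17 to 0.90) and Hadhb (-0.26 to 0.42) were not called. The call of Acadm was lost without IL-2 replicate 2 or any 1 of the 4 inhibitor libraries (0.35 to 0.38, adjusted p 0.0637 to 0.190), as was that of Etfa (-0.53 to -0.36, adjusted p 0.0513 to 0.194). Acadm was also not called with library size alone, with no filter or by limma on both scales (0.18 to 0.36, adjusted p 0.0643 to 0.468). By DESeq2, Acads (adjusted p = 0.0391) and Hadha (adjusted p = 0.0369) were called lower. By edgeR Hadha was also called with library size alone (adjusted p = 0.0263) and with genes of at least 5 RPKM (adjusted p = 0.0433). With these groups fitted alone, Acads, Hadha and Slc25a20 were called lower and Acadvl higher (adjusted p 0.000233 to 0.0129 by edgeR). The same 4 genes were called without either IL-21 library.

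Beyond the 10 genes, Hadh (-0.72 ± 0.10, adjusted p = 0.000686) and Etfb (-0.74 ± 0.16, adjusted p = 0.00804, not called without IL-2 + LDHi replicate 2 or either IL-21 + LDHi library) were lower and Eci2 (0.45 ± 0.13, adjusted p = 0.0332, not called without any 1 of the 4 inhibitor libraries or of the 2 IL-2 libraries) was higher with IL-21 + LDHi, 1 higher and 2 lower of 17. Without IL-21 replicate 1 or 2 that list had 2 and 3 higher and 4 lower each. The uptake list had 5 calls of 18, all lower, with Fabp5 at 1.82 and 2.32 RPKM in IL-21 + LDHi and 16.4 and 17.2 RPKM in IL-2 + LDHi (-2.84 ± 0.25, adjusted p = 3.75e-05). The synthesis list had 1 higher and 5 lower of 15, the higher gene being Elovl6 (1.96 ± 0.11, adjusted p = 1.93e-06). Peroxisomal genes gave 2 higher and 1 lower of 14, and lipolysis genes 1 and 1 of 6. Of 18 regulators 2 were called and of 6 PPAR targets 2, all lower. Basophil and mast cell markers were low in both groups, at 1.02 to 1.49 RPKM in IL-21 + LDHi and 1.61 to 1.84 RPKM in IL-2 + LDHi, as were granulocyte markers, at 0.330 to 0.490 and 0.387 to 0.504 RPKM. The 7 macrophage markers summed to 5.74 to 7.59 RPKM in IL-21 + LDHi and 10.7 to 16.2 RPKM in IL-2 + LDHi, and the 3 NK cell markers to 11.1 to 11.3 and 38.1 to 39.1 RPKM. What part they have in the result was not tested.

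Whether the inhibitor acted differently in the cytokines was tested as an interaction, the log2 change with LDHi in IL-21 cells minus that in IL-2 cells. Etfa was the 1 gene called of 10, with 0 lower by edgeR, DESeq2 or limma and 1 at an unadjusted p below 0.05. Its interaction was 0.56 ± 0.17 (adjusted p = 0.0473), beside 21.8% of all genes called, 7.98% higher and 13.8% lower. It fell with LDHi in IL-2 cells and was not called in IL-21 cells (0.15, -0.12 to 0.43). The call was lost without IL-21 replicate 2 and without either library of each of the other 4 groups (0.43 to 0.64, adjusted p 0.0609 to 0.187). In all it was lost in 16 of 20 alternatives. The other 7 were library size alone, no filter, genes of at least 5 RPKM, these groups fitted alone, the replicate block and limma on both scales (0.42 to 0.56, adjusted p 0.0522 to 0.176). For Acadl the interaction was 0.18 (-0.19 to 0.55), so its fall with LDHi was not shown to differ between the cytokines, and the interval reaches 0.55. The same holds of Slc25a20 (-0.61, -1.12 to -0.11, adjusted p = 0.0809 by edgeR), Cpt2 (-0.11 to 0.84) and Acads (-0.06 to 1.58). Slc25a20 was called with library size alone (-0.75, adjusted p = 0.0349) and stood at -0.77 without IL-21 replicate 2. Without IL-21 replicate 1, which leaves replicate 2 alone in its group, the interaction was 1.13 for Acadvl, 1.26 for Acads and 0.56 for Hadhb. The median was 0.23 for the 10 genes and -0.08 over all genes. Among the 17 other mitochondrial enzymes 3 were called higher, Pcca (1.15 ± 0.20, adjusted p = 0.00382), Eci2 (0.76 ± 0.19, adjusted p = 0.0189) and Hadh (0.52 ± 0.14, adjusted p = 0.0294), and 0 lower by edgeR, DESeq2 or limma (1 at an unadjusted p below 0.05). Eci2 and Hadh were not called without either library of the IL-2, IL-2 + LDHi or IL-21 + LDHi group, each of which left 1 gene of the list called, and without IL-21 replicate 1 or 2 it had 10 and 6. The synthesis list gave 9 higher and 1 lower of 15, the uptake list 2 and 2 of 18, peroxisomal genes 1 and 1 of 14, and lipolysis genes 1 and 1 of 6. Of 18 regulators 3 were called, all lower, and of 6 PPAR targets 0 were called by edgeR, DESeq2 or limma (1 at an unadjusted p below 0.05).

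Over the 7 comparisons, 19 of 70 tests of the 10 genes (27.1%) were called, against 32.9% of the tests of all genes, and they were spread over 7 genes, while Cpt1a, Acadvl and Hadhb were called in none. By level, Hadhb was the most abundant, with a mean of 41.8 RPKM over the 10 libraries and above 90.7% of tested genes, and Cpt2 the least, with 4.35 RPKM and above 43.3%. Cpt1a, the entry step, had the narrowest range of group means, the highest being 1.31 times the lowest. Summed over the 10 genes, the level was 200.9 and 199.6 RPKM in IL-21 + LDHi, 227.9 and 236.2 in IL-2 + LDHi, 250.7 and 176.6 in IL-21, 288.4 and 286.5 in IL-2, and 214.5 and 203.2 RPKM without cytokine. In RPKM the IL-2 sums were above those of every other library, and the IL-21 sums spanned those of the remaining groups. These sums depend on the authors' library totals. The share of these totals on the transcripts used ran from 59.9% in IL-21 replicate 2 to 79.4% in IL-2 replicate 2. The sums were not made on the TMM scale, where the order of groups may differ.

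Across the 10 libraries the genes did not rise and fall as 1 block. Of 45 pairs, 27 had a positive Pearson r of log2 CPM, the median was 0.178, and the extremes were 0.922 for Acads with Hadha and -0.805 for Acadm with Etfa. Hadha and Hadhb, the subunits of 1 complex with a shared start region, had an r of -0.0143. These values describe 10 libraries that share groups, with the low IL-21 replicate 2 among them. Among 7748 other tested genes with a mean of at least 5 RPKM, those most like Cpt1a over the 10 libraries were Kif1c (r = 0.964), Cast (0.917), Wrnip1 (0.909), Gemin5 (0.905) and Snrnp40 (0.902), and those most like the mean of the 10 genes were Pygb (0.976), Eif2d (0.976), Cd47 (0.971), Adipor2 (0.968) and Dynlt1b (0.967). Gnptab followed Acadl most closely (r = 0.978), a likeness looked up after the values were seen.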

How the data were processed

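The deposited files, 1 per library, hold whole-number read counts and RPKM values for 31682 transcripts, and the counts were used as deposited by the authors. Per the submitters' processing notes the tools were Bowtie2 2.2.6, TopHat2 2.2.1, SAMtools 0.1.8, bedtools 2.25.0 and edgeR, on the mouse build mm10, and the sources used here do not give a strand setting. The RPKM values of the authors are as deposited per the file headers, relative to their own library totals. Each of 23992 symbols was represented by its transcript with the largest read sum. Genes passing edgeR's filterByExpr (minimum count 10, minimum total 15) were scaled by TMM and tested with edgeR 4.0.16 (R 4.3.3), a robust quasi-likelihood fit over all 10 libraries with 5 group means and 7 contrasts. The Benjamini-Hochberg adjustment ran over 14357 genes, SEs follow from the F statistic and 95% intervals from t. The fit was tested on simulated data with the same spread for all genes and 200 genes changed per comparison. Of 1.5-fold changes 2.99 to 16.4% were recovered per comparison, of 2-fold changes 20.9 to 73.1%, and of 4-fold changes 87.9 to 100%. The lowest values were those of the interaction. In the data 11.5 to 50.5% of genes were called per comparison, so the adjusted threshold was stricter in the simulation. These shares are therefore not the recovery in the data. A gene that was not called may thus still have changed by 1.5-fold or 2-fold. No libraries were duplicates by their counts. Samples were grouped by their labels, which do not pair replicate numbers: the deviations of same-numbered libraries correlated between -0.147 and 0.483 over 10 pairs of groups, above 0.1 in 3. Alternatives were other scaling (RLE, library size alone), filters, the longest transcript, DESeq2 1.42.0, limma 3.58.1 on log2(RPKM + 1) or + 0.1, the compared groups alone, a replicate block and each library left out. Figures used matplotlib 3.10.9. The genes and lists were chosen with earlier results of these data known. Named besides the 10 genes are up to 4 genes of each list with the smallest p in a comparison, list genes whose role bears on one of the 10, and the 5 genes most like Cpt1a or the mean of the 10 by Pearson r of log2 CPM. Promoters are RefSeq windows, and gene overlaps come from GENCODE M21.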

Additional observations from a re-analysis of the deposited data

Results flagged for a closer look

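The response to LDHi differed between IL-21 and IL-2 cells by the interaction test of edgeR's quasi-likelihood fit, as log2 change in IL-21 cells minus that in IL-2 cells, for Etfa (0.56, adjusted p = 0.0473) among the 10 genes, a call that was lost in 16 of 20 alternatives (adjusted p up to 0.187). Etfa's change with LDHi was 0.15 in IL-21 cells and -0.40 in IL-2 cells. In the list of other mitochondrial enzymes it differed for Hadh (0.52, adjusted p = 0.0294), with changes of -0.34 and -0.85, and for Eci2 (0.76, adjusted p = 0.0189), with -0.09 and -0.85. It also differed for Pcca, the propionyl-CoA carboxylase subunit in that list (1.15, adjusted p = 0.00382), with 0.28 and -0.87. Of the acetyl-CoA carboxylases, which make malonyl-CoA, it differed for Acaca (0.68, adjusted p = 0.0115), with -0.12 and -0.80, and for Acacb (3.21, adjusted p = 0.000734), with 1.24 and -1.97. For the genes named here the change was higher in IL-21 cells than in IL-2 cells, which is not the direction of all calls. Regulators gave 0 higher and 3 lower of 18, the uptake list 2 and 2 of 18 and the synthesis list 9 and 1 of 15. Over all genes 7.98% were called higher and 13.8% lower. Pcca held its call under all 20 alternatives and Acacb under the 19 in which it was tested. Acacb has a low level, as given above, and the size of its interaction ran from 0.593 to 3.52 over these alternatives. Hadh lost its call in 10 of 20 alternatives, Eci2 in 8 and Acaca in 6, with adjusted p values up to 0.158, 0.103 and 0.0924. Basophil and mast cell markers summed to 1.02 to 1.49 RPKM in IL-21 + LDHi and 66.6 to 92.0 RPKM in IL-21, and their part in these values was not tested.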

How the results depend on the processing

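Of the 19 calls among 70 tests of the 10 genes, 7 held under all 20 alternatives: Acadl, Etfa and Acadm for IL-2 against no cytokine, Acads and Etfa for IL-21 against IL-2, and Acadl for LDHi in either cytokine. The other 12 were lost under some, 21 uncalled tests were gained under some, 16 of them without IL-21 replicate 1 and 10 without IL-21 replicate 2, and 0 calls reversed. RLE scaling and the longest transcript changed no call. Of 111 calls among the named list genes, 74 held wherever the gene was tested and 0 reversed. The cause of each change below was not tested. Each group had 2 libraries, and the 10 genes had 404 to 8147 reads per library.

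Leaving out single libraries gave, for IL-2 against no cytokine, 2 to 5 of the 10 genes higher, 1 lower and 4956 to 8911 genes called over all. For IL-21 against no cytokine it gave 1 to 2 higher, 0 to 3 lower and 749 to 3967 called. For IL-21 against IL-2 it gave 0 to 1 higher, 2 to 5 lower and 4509 to 8370 called. For LDHi in IL-2 cells it gave 0 higher, 1 to 5 lower and 3109 to 7326 called, and in IL-21 cells 0 to 2 higher, 1 to 4 lower and 2453 to 6660 called. For IL-21 + LDHi against IL-2 + LDHi it gave 0 to 2 higher, 0 to 4 lower and 2055 to 5493 called, and for the interaction 0 to 4 higher, 0 to 1 lower and 1750 to 5203 called.

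With library size alone as the scale, Hadha lost its call for IL-2 against no cytokine and IL-21 against IL-2, Etfa for LDHi in IL-2 cells and the interaction, and Acadm for IL-21 + LDHi against IL-2 + LDHi. On this scale 1 gene was higher with LDHi in IL-2 cells, 0 higher and 2 lower in IL-21 + LDHi against IL-2 + LDHi, and 0 higher and 1 lower in the interaction. That scale moved the median of all genes to -0.17 for IL-2 against no cytokine, 0.13 for LDHi in IL-2 cells and -0.22 for the interaction, against -0.03, 0.01 and -0.08 under TMM. DESeq2 gave 3 lower in IL-21 + LDHi against IL-2 + LDHi. With no filter, 0 were higher in IL-21 against IL-2, IL-21 + LDHi against IL-2 + LDHi and the interaction. With genes of at least 5 RPKM in 2 libraries, 4484, 1083, 4349, 3651, 2563 and 1984 genes were called for IL-2 and IL-21 against no cytokine, IL-21 against IL-2, LDHi in IL-2 and in IL-21 cells and the interaction, with fewer genes tested, and 2 of the 10 were lower in IL-21 + LDHi against IL-2 + LDHi and 0 higher in the interaction.

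On log2(RPKM + 1) and log2(RPKM + 0.1) limma gave 2 higher for IL-2 against no cytokine, 2 lower for LDHi in IL-2 cells and 0 higher in IL-21 against IL-2, IL-21 + LDHi against IL-2 + LDHi and the interaction, and with + 1 also 1 lower for LDHi in IL-21 cells. Fitted alone, the compared groups gave 0 higher and 91 genes called for IL-21 against no cytokine, 0 higher and 4522 for IL-21 against IL-2, 1 higher and 9069 for LDHi in IL-2 cells, 1 lower and 2259 for LDHi in IL-21 cells, 2 higher, 4 lower and 7352 for IL-21 + LDHi against IL-2 + LDHi, and 0 higher in the interaction. With the replicate number as a block, 0 were higher in the interaction (Etfa 0.56, adjusted p = 0.0560), and no other call of the 10 genes changed.

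Of all genes called, the share that was higher was 48.9% for IL-21 against no cytokine, against 37.2% with library size alone and 24.8% by limma, and 50.3% for IL-21 against IL-2, against 30.9% by limma. It was 45.2% for LDHi in IL-2 cells, against 56.3% with library size alone, 36.0% for IL-21 + LDHi against IL-2 + LDHi, against 19.4% by limma, and 36.7% for the interaction, against 25.3% with library size alone and 50.1% by limma.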
